A study of Arabidopsis thaliana with 6 samples.

Results

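PIP1;2 is an aquaporin gene on chromosome 2 of Arabidopsis thaliana, and the line atpip1;2-1 carries a T-DNA insertion in it. The genes on both sides of PIP1;2 were described here to see whether the leaf transcript levels of its neighbours differed between that line and the wild type. They were taken by position, as the rows of the table per gene with AGI codes (locus codes that run along the chromosome) from AT2G45500 to AT2G46390. PIP1;2 (AT2G45960) and 1 other gene inside the range, AT2G45660, were left out, the latter for no stated reason. This gave 93 genes of 28387 in the table, 47 with lower and 46 with higher codes than PIP1;2, and their codes follow the order of the loci in the RefSeq gene table. Of the 93 genes, 88 are protein-coding, 2 are listed as ncRNA, and there is 1 lncRNA, 1 tRNA and 1 miRNA gene.

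The study compared atpip1;2-1 with the wild type N-60000, on 3 Affymetrix arrays each. Leaves came from 3-week-old greenhouse plants under a 12-h photoperiod at 370 µmol mol-1 ambient CO2, and the labels name no treatment. RNA from 5 plants was pooled for each array, 15 plants for each line. The mutant is a single insertion line, so its own background cannot be told apart from the insertion in these data, and p-values measure the spread between pools of plants.

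A T-DNA is a stretch of bacterial DNA that integrates at a breakpoint in a plant chromosome and can interrupt the gene it enters. Such insertions often carry strong promoters or enhancers, and can come with small deletions or rearrangements, so genes beside the insertion may be affected as well as the gene that carries it. Markers close to an insertion are also inherited with it through crosses, which is why differences between 2 lines can cluster around an insertion site.

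Transcript of the targeted gene was strongly reduced in atpip1;2-1. PIP1;2, a plasma membrane channel for water that has also been studied for the passage of CO2, had wild type log2 values of 8.73, 9.14 and 8.74 against mutant values of 5.16, 5.51 and 5.18. Its log2 fold change, mutant minus wild type, was -3.59 (SE 0.18, 95% interval -4.00 to -3.17, limma adjusted p = 0.000148). Without moderation of the spread its adjusted p was 0.103, in a fit where 0 of all 28387 genes passed and 10.8% had an unadjusted p under 0.05. An exact permutation test (two-sided) gave p = 0.1, the lowest value that a design of 3 against 3 can reach. Where the probes of PIP1;2 lie relative to the insertion is unknown here. In leaf tissue, fewer cells with a transcript and less transcript in each cell cannot be told apart. Correlations between arrays over all genes lay between 0.975 and 0.989. The 5 mesophyll marker genes had group means between 8.84 and 10.9 and none lay in the dimmest 25% of genes (mean log2 value under 2.20), while the 4 root markers had group means between 2.30 and 2.93, the 4 flower markers between 1.70 and 2.77 and the 2 seed markers between 1.79 and 2.89. None of the 21 marker genes, those of guard cells and phloem included, passed the threshold. All 5 mesophyll markers were higher in the mutant in the mean, by between 0.07 (LHCB2.1) and 0.68 (LHCB1.3) on the log2 scale. So were the 4 guard cell markers, by 0.01 (FAMA) to 0.34 (SLAC1), and the 2 phloem markers, by 0.25 (APL) and 0.33 (SUC2). The seed markers were higher as well, while root and flower markers went both ways. The summed log2 values of the mesophyll markers lay between 50.8 and 51.1 on the mutant arrays and between 49.4 and 49.7 on the wild type arrays. The part of this in the values of the flanking genes was not tested.

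None of the 93 flanking genes passed the threshold of 0.05 on the adjusted p, where 97 of all 28387 genes did (0.342%), 53 of them higher and 44 lower in the mutant. At that background rate fewer than 1 call is to be read from a set of this size, so the count of 0 by itself separates the flanking genes from no other set. At an unadjusted p under 0.05, limma gave 7 of the 93 (7.53%), 2 higher and 5 lower in the mutant, against 12.2% of all genes, of which 5.92% were higher and 6.32% lower. The smallest adjusted p among the flanking genes was 0.206. The array values of both lines did not overlap in 17 of the 93 (18.3%), 5 higher and 12 lower, against 18.5% of all genes, which split into 9.30% higher and 9.24% lower.

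The sizes of the differences were close to those over all genes. The median log2 fold change of the 93 genes was -0.02, against -0.01 over all genes, with 43 genes higher and 50 lower in the mean. The median absolute log2 fold change was 0.20, against 0.18 over all genes. Its 90th percentile was 0.39 in the flanking genes and 0.49 in all genes. A size over 0.5 was measured in 6 of the 93 (6.45%), against 9.53% of all genes, and a size over 1 in 1 of them (1.08%), against 1.01%.

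**Figure D1:**
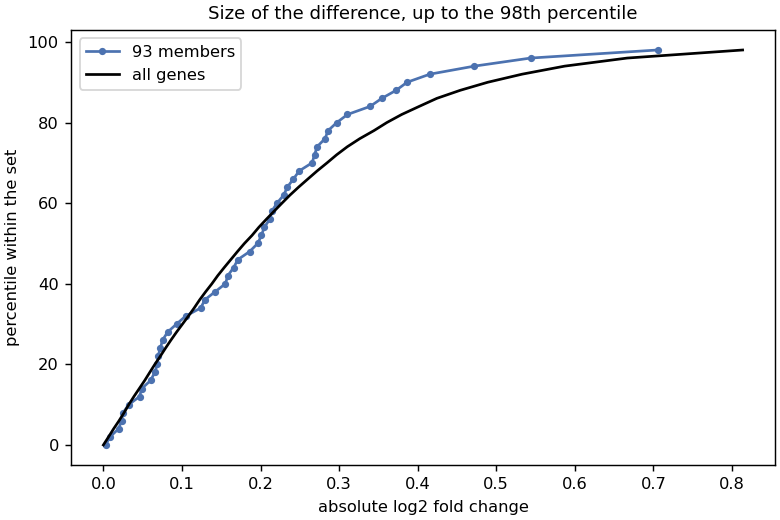
Cumulative plot of the absolute log2 fold change (x axis) against the percentile within each set (y axis), for the 93 flanking genes (blue points) and all 28387 genes (black line), up to the 98th percentile. The curves lie close together up to their medians of 0.20 and 0.18, and the flanking genes reach smaller sizes at the 90th percentile, 0.39 against 0.49.

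The intervals show what differences these arrays leave possible. For 89 of the 93 genes the 95% interval of the log2 fold change lay wholly between -1 and 1, that is, within a 2-fold change either way, against 90.0% of all genes. The 4 genes whose interval reached below -1 were AT2G45695, AT2G45710, AT2G45860 and AT2G46170, and no interval reached above 1. The lowest bound of any flanking gene was -1.70, so none of the intervals met that of PIP1;2. The median standard error was 0.19, as over all genes, with a range of 0.15 to 0.32, against 0.15 to 0.96 over all genes. With its own standard error, a flanking gene would have needed a log2 fold change of between 0.90 and 1.91 (median 1.15) to reach the smallest t statistic among the 97 genes called. Smaller differences fell short of that t statistic in this fit. The size needed depends on the fit: with a variance trend and robust fitting, 375 of the 28387 genes passed (1.32%), and 0 of the 93.

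**Figure D2:**
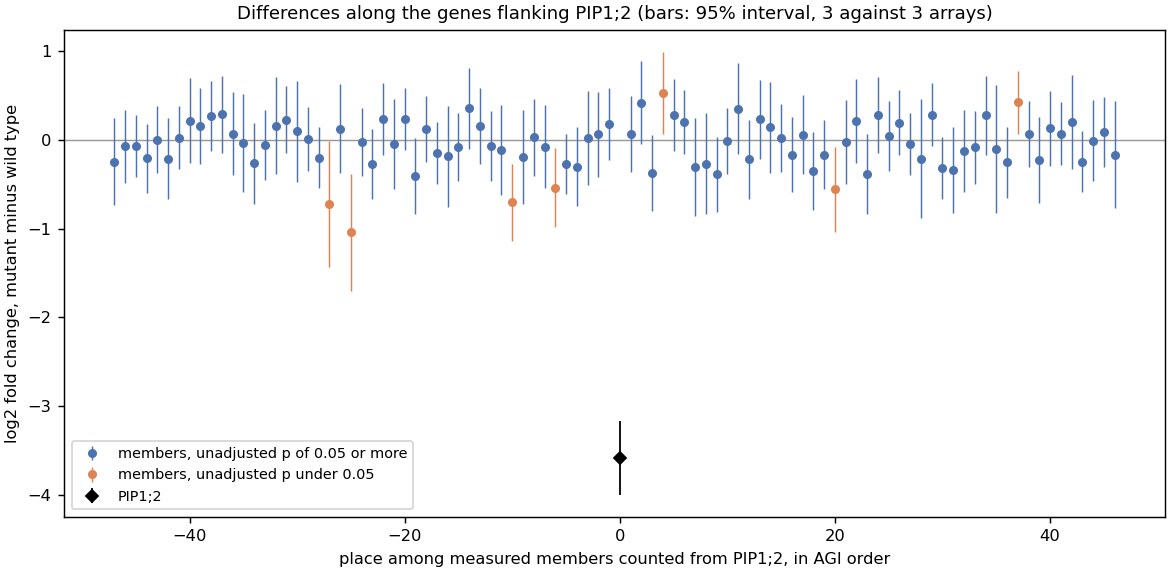
Log2 fold change, mutant minus wild type (y axis), of each flanking gene by its place in AGI order counted from PIP1;2 (x axis), with 95% intervals from 3 against 3 arrays. PIP1;2 (black diamond) lies at -3.59, while the flanking genes lie between -1.04 and 0.53, and the 7 genes at an unadjusted p under 0.05 (orange) are spread over both sides.

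The 10 measured genes nearest PIP1;2 had a median absolute log2 fold change of 0.28, against 0.18 over all genes, with 7 higher and 3 lower. The closest gene on each side had a smaller difference. SK20, listed also as SKP1-like 20 after the ubiquitin ligase subunit SKP1, is the nearest gene with a lower code and had wild type log2 values of 6.35, 6.27 and 5.86 against mutant values of 6.19, 6.42 and 6.40. CYP86A8, or LACERATA, a cytochrome P450 that hydroxylates fatty acids and is needed for a normal epidermis, is the nearest with a higher code and had wild type values of 4.69, 4.90 and 4.63 against mutant values of 4.62, 5.15 and 4.63. Both groups of arrays overlapped in each of the 2 genes, with log2 fold changes of 0.18 (SE 0.18, 95% interval -0.23 to 0.59) for SK20 and 0.07 (SE 0.19, 95% interval -0.36 to 0.50) for CYP86A8. A loss or gain of 2-fold lay outside both intervals.

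Going outward on the side of higher codes, ATI1, which binds the autophagy protein ATG8, had wild type values of 5.81, 5.91 and 5.35 against mutant values of 5.80, 6.20 and 6.33. AT2G45990 had wild type values of 7.37, 6.94 and 6.70 against mutant values of 6.61, 6.68 and 6.60, so that its mutant arrays lay just under its lowest wild type array. AT2G46000 had wild type values of 3.60, 3.02 and 3.66 against mutant values of 3.89, 3.83 and 4.15, with all mutant arrays above. The fifth on this side, BRM, the ATPase of a SWI/SNF chromatin remodelling complex, had wild type values of 6.68, 6.90 and 6.71 against mutant values of 6.79, 7.05 and 7.31, with overlap. Their log2 fold changes were 0.42 (SE 0.21) for ATI1, -0.37 (SE 0.19) for AT2G45990, 0.53 (SE 0.21) for AT2G46000 and 0.29 (SE 0.18) for BRM, with limma adjusted p between 0.348 and 0.570. Each of these sizes moved both ways with 1 array left out. ATI1 lay between 0.25 (without wild type replicate 3) and 0.58 (without mutant replicate 1). AT2G45990 lay between -0.525 (without wild type replicate 3) and -0.19 (without wild type replicate 1). AT2G46000 lay between 0.32 (without wild type replicate 2) and 0.64 (without wild type replicate 3). BRM lay between 0.15 (without mutant replicate 3) and 0.42 (without mutant replicate 1).

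On the side of lower codes, AT2G45940 had wild type values of 2.33, 1.98 and 2.45 against mutant values of 2.70, 2.05 and 2.21, and AT2G45930 had 3.66, 3.82 and 3.96 against 3.62, 3.51 and 4.37. AT2G45920 had wild type values of 3.82, 3.50 and 3.42 against mutant values of 3.35, 3.52 and 2.96. All 3 of these genes overlapped between the groups. AT2G45910 had wild type values of 7.24, 7.14 and 7.05 against mutant values of 6.83, 6.89 and 6.91, the tightest replicates of the 10 nearest genes, with every mutant array below every wild type array by a small step. Its log2 fold change was -0.27 (SE 0.15, limma adjusted p = 0.516).

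**Figure D3:**
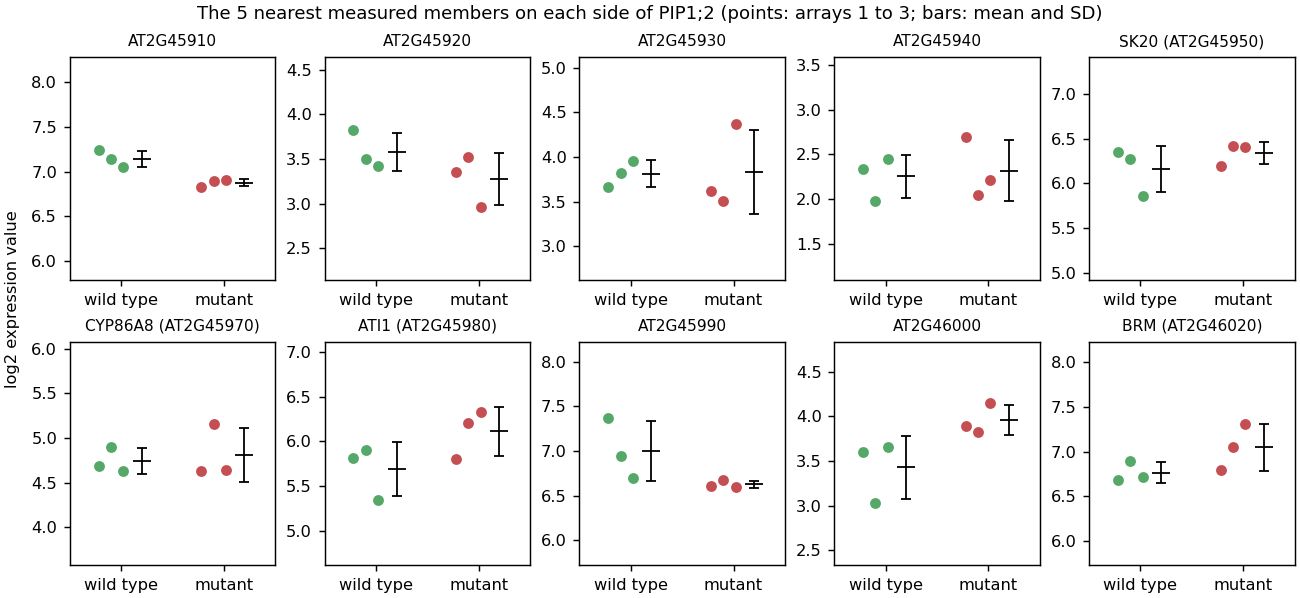
Log2 expression values (y axis, same span in each panel) on the 3 wild type (green) and 3 mutant (red) arrays for the 5 measured genes nearest PIP1;2 on each side, with mean and SD in black. The groups are apart in AT2G45910, AT2G45990 and AT2G46000 (30%, against 18.5% of all genes) and overlap in the other 7.

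The 7 genes at an unadjusted p under 0.05 did not form a block. They stood at places 27, 25, 10 and 6 on the side of lower codes and at places 4, 20 and 37 on the side of higher codes, and no 2 of them were next to each other. AT2G45710 had the lowest log2 fold change of the 93 genes, with wild type values of 2.02, 3.21 and 2.55 against mutant values of 1.57, 1.87 and 1.21. The groups were apart, but the wild type arrays spread widely and the mutant mean of 1.55 lay under the bound of the dimmest 25% of genes, so the size is uncertain. The log2 fold change was -1.04 (SE 0.29, limma adjusted p = 0.211), and -0.54 (SE 0.19, limma adjusted p = 0.321) in the table per probe set.

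AT2G45695, listed as URM11 or ubiquitin-related modifier 11, lies 2 places farther out and had wild type values of 5.48, 5.11 and 5.00 against mutant values of 5.00, 4.78 and 3.67. Mutant array 3 stood far below the other mutant arrays. The log2 fold change was -0.72 (SE 0.32, limma adjusted p = 0.402) over all arrays. It was -0.31 without mutant replicate 3 and -0.98 without mutant replicate 1. AT2G45700, between AT2G45695 and AT2G45710, went the other way, with a log2 fold change of 0.13.

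AT2G45860 had the smallest adjusted p of the 93 genes, with wild type values of 3.36, 3.30 and 3.13 against mutant values of 2.19, 2.77 and 2.73. Its groups were apart and its log2 fold change was -0.70 (SE 0.19, 95% interval -1.14 to -0.27, limma adjusted p = 0.206), while the table per probe set gave -0.42 (SE 0.24). TRM13, a gene of the TON1 recruiting motif family, had wild type values of 2.95, 3.00 and 3.43 against mutant values of 2.29, 2.76 and 2.71, also apart. Its log2 fold change was -0.54 (SE 0.20, limma adjusted p = 0.327).

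On the side of higher codes, AT2G46000 was given above among the nearest genes. AT2G46170 had wild type values of 6.75, 6.78 and 6.42 against mutant values of 6.15, 6.43 and 5.70, with a slight overlap. Its log2 fold change was -0.56 (SE 0.21, limma adjusted p = 0.338), or -0.36 without mutant replicate 3 and -0.72 without mutant replicate 2. AT2G46308 had wild type values of 1.44, 1.68 and 1.64 against mutant values of 1.95, 2.13 and 1.95. These arrays were apart at values that all lie within the dimmest 25% of genes, with a log2 fold change of 0.42 (SE 0.16, limma adjusted p = 0.330) and the same size, 0.42 (SE 0.14), in the table per probe set. Of the 7 genes, AT2G45710 and AT2G45860 stayed at an unadjusted p under 0.05 when each array was left out in turn, and the other 5 did not.

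**Figure D4:**
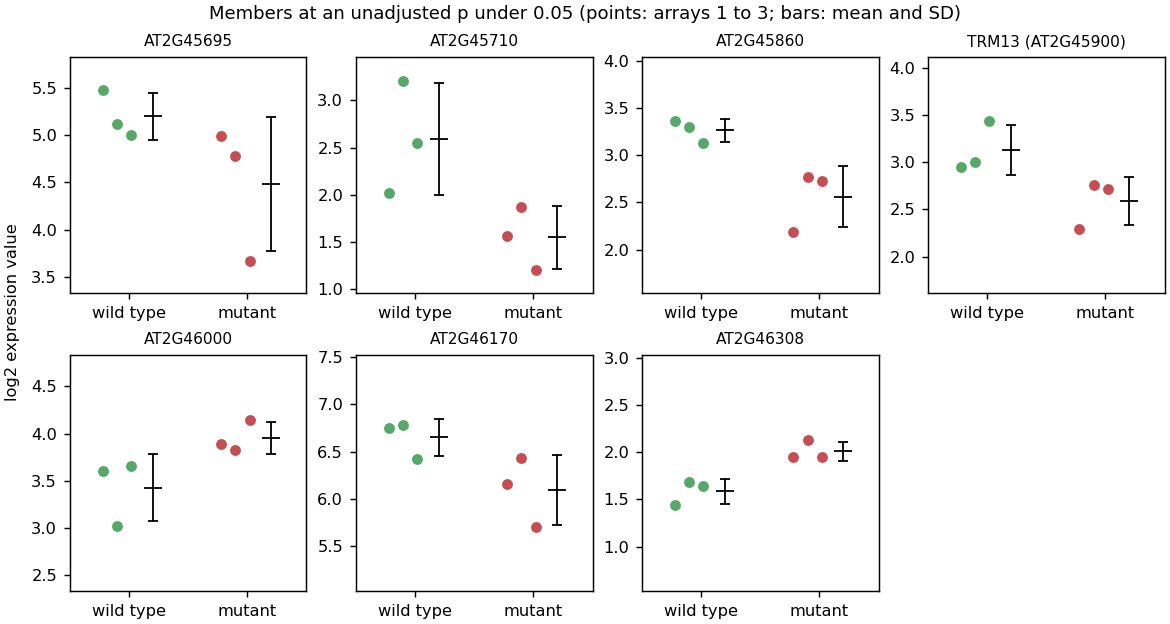
Log2 expression values (y axis, same span in each panel) on the 3 wild type (green) and 3 mutant (red) arrays for the 7 flanking genes at an unadjusted p under 0.05, with mean and SD in black. AT2G45695 has 1 mutant array at 3.67 far below the rest, and AT2G46170 is the gene in which the groups overlap.

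Distance from PIP1;2 sorted the differences only loosely. The 20 genes at places 1 to 10 had a median absolute log2 fold change of 0.27, against 0.18 over all genes. The genes at places 11 to 20, 21 to 30 and 31 to 40 had 0.17, 0.21 and 0.19. The 13 genes at places 41 and beyond had 0.09. Across the 93 genes the size and the place had a Spearman correlation of -0.18 and a Pearson correlation of -0.18, given as a description, since the genes share the 6 arrays. Among the 20 nearest, 3 (15.0%) had an unadjusted p under 0.05, against 12.2% of all genes. Groups did not overlap in 6 of them (30%), 1 higher and 5 lower, against 18.5% of all genes (9.30% higher and 9.24% lower). The direction did not sort by distance, with 9 of the 20 nearest genes higher and 11 lower in the mean.

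Both flanks had medians near 0. The 47 genes with lower codes had a median of -0.05 on the log2 scale, 21 higher and 26 lower, and the 46 with higher codes had -0.01, 22 higher and 24 lower. At an unadjusted p under 0.05 were 4 of the former (0 higher, 4 lower) and 3 of the latter (2 higher, 1 lower). Neighbouring genes had the same sign in 49 of 91 pairs (53.8%), against 50.7% of neighbouring pairs on all 5 nuclear chromosomes. Beyond the range, the 45 measured genes with the next lower codes held 9 at an unadjusted p under 0.05 (20%, 7 higher and 2 lower). Their median was 0.11, with 28 higher and 17 lower in the mean and 22.2% with a size over 0.5. The 45 with the next higher codes held 7 (15.6%, 4 higher and 3 lower). Their median was 0.01, with 23 higher and 22 lower in the mean and 8.89% over that size. Over all genes these shares were 12.2% and 9.53%, and 0 genes passed the threshold in each block of 45. On the rest of chromosome 2, 15 of 4331 genes passed the threshold (0.346%) and 530 (12.2%) had an unadjusted p under 0.05.

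Wild type array 3 gave the lowest value of its group in 57.0% of the flanking genes, against 37.6% of all genes, and wild type array 1 in 17.2%, against 32.4%. The mutant arrays shared the lowest place more evenly, in 32.3% to 34.4% of the flanking genes. Without wild type replicate 3 the median log2 fold change of the 93 genes was -0.05, and 0 passed the threshold, against 0.169% of all genes. In that fit 7 of the 93 (7.53%) had an unadjusted p under 0.05, against 12.2% of all genes.

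By role, 49 of the 93 genes fell into 7 lists written from textbook knowledge. Of these 49 genes, 10 carry no name in the reference table and are given by code only. The lists are short and hold what happens to lie near PIP1;2, so their counts are a description beside the median of -0.01 and the 12.2% of all genes.

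The cytochrome P450 genes had log2 fold changes between -0.21 and 0.22 in 6 genes (median 0.05), 4 higher and 2 lower, and 0 at an unadjusted p under 0.05. They include the tandem row CYP76C4, CYP76C1, CYP76C2 and CYP76C3, of a family that oxidises monoterpene alcohols, and CYP704A2. CYP76C1 had wild type values of 5.73, 5.79 and 5.67 against mutant values of 5.60, 5.76 and 5.90, a log2 fold change of 0.02 (SE 0.16). CYP76C4 had -0.21 (SE 0.20) and CYP76C2 had 0.22 (SE 0.21). Probes of such related neighbours can read more than 1 copy, so the values of single CYP76C genes are uncertain.

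Genes of transcription and chromatin ranged from -0.31 to 0.29 in 9 genes (median -0.06), 4 higher and 5 lower, with 0 at an unadjusted p under 0.05. The highest was BRM and the lowest was ARID1 (AT2G46040), a gene of the AT-rich interacting domain family, at -0.31 (SE 0.25), where mutant array 3 at 4.53 stood above the other mutant arrays at 3.58 and 3.63. GBF3, a bZIP factor that binds the G-box, had -0.08 (SE 0.18), SAP18, a protein of histone deacetylase complexes, had -0.06 (SE 0.17), and the cytokinin response factor gene CRF5 had 0.07 (SE 0.17). AGL6, a MADS-box gene of flower development, had 0.16 (SE 0.24) and WRKY43 had -0.17 (SE 0.19). All arrays of WRKY43 lay under 2.20, within the dimmest 25% of genes.

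AT2G45660, the gene left out besides PIP1;2, is listed as AGL20 or SOC1, a MADS-box promoter of flowering, and is next to AGL6. It had wild type values of 5.29, 5.01 and 4.99 against mutant values of 5.67, 5.72 and 6.19, with the groups apart and a log2 fold change of 0.76 (SE 0.19, limma adjusted p = 0.165). Counted with the 93 genes it would have the highest log2 fold change and, PIP1;2 aside, the smallest limma adjusted p of the range. It would raise the genes at an unadjusted p under 0.05 from 7 to 8 and leave those past the threshold of 0.05 at 0. At an adjusted p threshold of 0.2 it would pass, while none of the 93 genes did. The share of all genes at that threshold is not given here.

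Genes of signalling and protein turnover ranged from -0.27 to 0.36 in 13 genes (median 0.07), 7 higher and 6 lower. None had an unadjusted p under 0.05, while the groups did not overlap in 5 of them (38.5%, against 18.5% of all genes), 3 higher and 2 lower. MPK12, a protein kinase of guard cells that takes part in the stomatal response to CO2, had wild type values of 7.20, 7.05 and 6.85 against mutant values of 7.12, 7.07 and 6.88. The arrays of both lines covered nearly the same range, with a log2 fold change of -0.01 (SE 0.17, 95% interval -0.39 to 0.36). JAR1, the enzyme that joins jasmonate to isoleucine to form the active hormone, had wild type values of 6.92, 6.76 and 6.67 against mutant values of 6.59, 6.49 and 6.54. JAR1 was lower on each mutant array by a small step, with a log2 fold change of -0.24 (SE 0.15, limma adjusted p = 0.569).

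SPA1, a partner of COP1 in the repression of light responses, had wild type values of 9.12, 9.04 and 9.23 against mutant values of 9.21, 9.08 and 9.32. Its groups overlapped, with a log2 fold change of 0.07 (SE 0.16, 95% interval -0.28 to 0.42). LRB1, an adaptor protein of the response to red light, had -0.13 (SE 0.21). BAG6, a co-chaperone that binds calmodulin, had wild type values of 4.90, 4.75 and 4.58 against mutant values of 5.01, 5.09 and 4.99, apart, with a log2 fold change of 0.29 (SE 0.16, limma adjusted p = 0.513). BAP2, an inhibitor of cell death that acts with BONZAI proteins, was also apart at 0.24 (SE 0.16), at values within the dimmest 25% of genes. AT2G45820 had the largest size of the list, 0.36 (SE 0.20), with overlap, and UBC6, ABIL1 and ROPGEF4 had 0.20, -0.05 and -0.08.

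Genes of organelles and membranes were lower in the mean in 7 of 9, from -0.56 to 0.42 (median -0.19), and 1, AT2G46170, had an unadjusted p under 0.05. CPFTSY, the receptor of the chloroplast signal recognition particle that brings light-harvesting proteins to the thylakoid membrane, had wild type values of 5.90, 5.79 and 5.81 against mutant values of 5.77, 5.13 and 5.39. Its mutant arrays lay below the wild type arrays, by a narrow step for mutant array 1. The log2 fold change was -0.40 (SE 0.19, limma adjusted p = 0.437), or -0.25 without mutant replicate 2 and -0.58 without mutant replicate 1. The 2 peroxin genes went opposite ways: SSE1, or PEX16, needed to form peroxisomes, had -0.20 (SE 0.15) with the groups apart, and PEX11D, of peroxisome division, had 0.23 (SE 0.18) with overlap. The golgin gene GC4 had -0.02 (SE 0.21) and SDH8, a succinate dehydrogenase gene, had -0.16 (SE 0.27).

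Genes of lipid, sugar and cofactor metabolism ranged from -0.22 to 0.23 in 6 genes (median 0.04), 4 higher and 2 lower. PMM, the phosphomannomutase that supplies mannose for glycosylation and vitamin C, had wild type values of 6.71, 6.68 and 6.67 against mutant values of 6.59, 6.65 and 6.38, a log2 fold change of -0.15 (SE 0.16). The long-chain base kinase gene LCBK2 had -0.22 (SE 0.20), KPHMT1, of pantothenate synthesis, had 0.14 (SE 0.23), the sphingolipid desaturase gene SLD2 had 0.05 (SE 0.18) and BAM7, a beta-amylase family gene, had 0.03 (SE 0.19). None had an unadjusted p under 0.05.

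The 4 genes of RNA and translation ranged from -1.04 (AT2G45710) to 0.28 (median -0.09). The highest was TRIP-1, a subunit gene of translation initiation factor eIF3, with a standard error of 0.20. Its neighbour AT2G46290 had -0.10 (SE 0.32), the largest standard error of the 93 genes, with arrays from 2.98 to 4.05 in both lines. Of the 2 genes of cytoskeleton and cell wall, the LIM protein gene PLIM2a had -0.18 (SE 0.26) and the arabinogalactan protein gene AGP16 had 0.13 (SE 0.19).

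**Figure D5:**
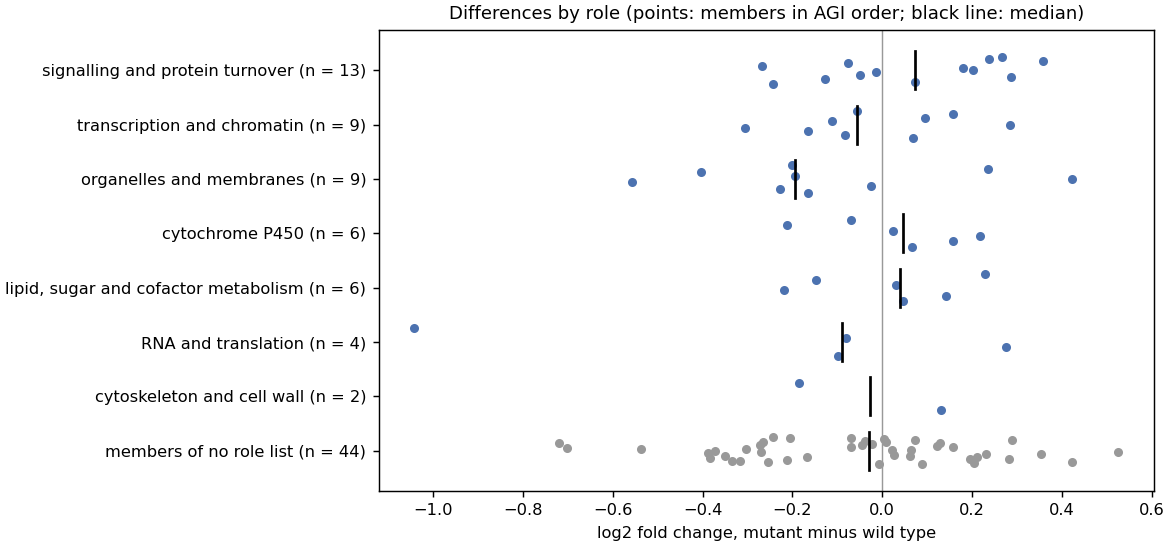
Log2 fold change, mutant minus wild type (x axis), of the 93 flanking genes by role list (y axis), each point 1 gene and the black line the median of its list. All 7 medians lie between -0.19 and 0.07, and 1 point of the RNA and translation list, AT2G45710 at -1.04, lies apart.

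The other 44 genes, in none of the lists, ranged from -0.72 (AT2G45695) to 0.53 (AT2G46000), with a median of -0.03, 20 higher and 24 lower. Of these 44, 5 (11.4%) had an unadjusted p under 0.05, against 12.2% of all genes. The next lowest after AT2G45695, AT2G45860 and TRM13 were AT2G46060 at -0.39 (SE 0.19) and the non-coding RNA gene AT2G46192 at -0.38. The highest after AT2G46000 and AT2G46308 was BPS2 at 0.35, with wild type values of 4.51, 3.78 and 3.77 against mutant values of 4.47, 4.14 and 4.52. MIR159c, the gene of a miRNA precursor of the miR159 family, which targets MYB factor transcripts, had wild type values of 1.95, 1.56 and 2.16 against mutant values of 1.77, 1.68 and 1.21. These values overlap and lie under 2.20, with a log2 fold change of -0.34. AT2G45620, listed as the RNA uridylyltransferase URT1, had -0.04, and AT2G46140, listed as LEA27, had 0.06.

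The table per probe set held 44 of the 93 genes, and 40 of those 44 had the same sign in both tables. None passed the threshold there, where 28 of 16348 genes did (0.171%), and 4 (9.09%) had an unadjusted p under 0.05, against 11.6% of its genes. Those 4 were AT2G45710, AT2G46308, AT2G45820 (0.31, SE 0.13) and AT2G45990 (-0.39, SE 0.17). The absolute difference between the log2 fold changes of both tables had a median of 0.10.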

How the data were processed

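Total leaf RNA was biotin-labelled and hybridised to 6 arrays, per the labels' protocols. The authors deposited log2 values by AGI code for each array. RMA (robust multi-array average) and Partek are named in the submitters' processing notes, without versions. No source used here names the genome build or how probes were grouped, and coordinates are therefore left out. Another deposited table is organised by probe set. Its scale and centring are unstated and were taken as log2, uncentred, since its values correlated at 0.960 to 0.966 with the table per gene. Of its 38408 probe sets, 16511 were named with 1 gene through the platform annotation and averaged to 16348 genes. Dim genes were kept, and no batch could be tested.

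All 28387 genes were fitted by lmFit and eBayes of limma (version 3.58.1, under R version 4.3.3), without covariates and two-sided. P-values were adjusted by Benjamini-Hochberg over the whole table, at a threshold of 0.05. PIP1;2 also had an exact permutation test. On simulated data with 28387 genes, the limma fit detected 29.9% of the genes given a 2-fold change (20 of 67), 83.3% of those given a 4-fold change (55 of 66) and 0 of the 67 given a 1.5-fold change. Named were any flanking gene past the threshold, the 5 nearest PIP1;2 on each side, the 8 highest and 8 lowest log2 fold changes, runs of neighbours at an unadjusted p under 0.05 and members of the role lists. The other genes named (AT2G45700, MIR159c, URT1 and LEA27) were chosen after their values were seen. The range of genes and the lists were chosen with earlier results of these data known. Alternatives were the probe-set table, filters on dim genes, other variance and weighting options, renormalization, a replicate block, each array left out, other thresholds and narrower ranges. Names came from the RefSeq gene table of TAIR10.1. Figures were drawn with matplotlib 3.10.9.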

Additional observations from a re-analysis of the deposited data

How the results depend on the processing

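The count of 0 flanking genes past the threshold was the same under every alternative run, including adjusted p thresholds of 0.1 and 0.2, each array left out in turn (0 to 0) and the replicate number as a block. AT2G45660 is not among these genes, and its limma adjusted p of 0.165 would pass at 0.2. The shares of all genes at thresholds of 0.1 and 0.2 are not given here, and are at least the 0.342% at 0.05. The 7 genes at an unadjusted p under 0.05 became 4 in the table per probe set, 4 without the dimmest 25% of genes, 4 without the dimmest 50% and 3 in the 10 measured genes on each side of PIP1;2, which test fewer of the genes, and lay between 6 and 10 with 1 array left out. The shares were 9.09% against 11.6% of all genes, 5.19% against 14.7%, 7.02% against 18.3% and 15% against 12.2%, in that order. With 1 array left out they were 6.45% to 10.8%, against 9.66% to 12.2% of all genes. The median log2 fold change was 0.0088 with equal array medians and lay between -0.05 and -0.0071 with 1 array left out. The median absolute log2 fold change was 0.27 in the 10 measured genes on each side, against 0.18 over all genes. Over the 93 genes it lay between 0.16 and 0.21 with 1 array left out. Without moderation of the spread PIP1;2 kept -3.59 with an adjusted p of 0.103 by limma's linear fit, and its range was -3.70 to -3.45 with 1 array left out. The 15 genes past the threshold on the rest of chromosome 2 became 9 in the table per probe set, 30 without the dimmest 50%, 55 with a variance trend and robust fitting and 0 without moderation, and 3 to 11 with 1 array left out. The count over all genes moved the same way, from 97 to 28, 196, 375 and 0 in the same order. With 1 array left out it was 14 to 48. The cause of these shifts was not tested. Of 62 named flanking genes, 24 changed sign under at least 1 alternative, all 24 with a size under 0.3 and none past the threshold in any fit, while 0 of the 7 genes at an unadjusted p under 0.05 changed sign. Same-numbered arrays had deviations correlated at 0.0085, 0.05 and 0.07, so the numbers were not taken to pair them. With the replicate block, 7 flanking genes (7.53%) had an unadjusted p under 0.05, against 12.4% of all genes, and 0 passed, against 0.159%. The addition of AT2G45660 was chosen after seeing the data. The arrays carry no background values here, so the 17 flanking genes with a group mean under 2.20 have uncertain sizes.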
